A study of Mus musculus with 4 samples.

Results

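The plasma signals of 7 miRNAs of skeletal and heart muscle were examined in aged and young mice. Found in striated muscle of both kinds are miR-1a-3p (MIMAT0000123) and miR-133a-3p (MIMAT0000145), while miR-133b-3p (MIMAT0000769) and miR-206-3p (MIMAT0000239) share a locus that is active in skeletal muscle. The miRNAs of the heart and of slow muscle fibres are miR-208a-3p (MIMAT0000520), miR-208b-3p (MIMAT0004939) and miR-499-5p (MIMAT0003482). They were picked by these miRBase accessions among the 1265 probes of the table, and each accession matched 1 probe. Cell-free RNA was taken from the plasma of 2 aged male C57BL6/J mice (23 to 24 months old by their labels) and 2 young male mice of this strain (6 to 7 weeks old), with 1 array for each mouse. The arrays were 3D-Gene mouse miRNA chips, which carry a probe for each mature miRNA and read RNA labelled with the dye Hy5 in 1 colour. The labels give no treatment, and the methods state that blood was drawn through a needle put into the heart and kept from clotting with EDTA. The mice of each age carry the numbers 1 and 2.

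MiRNAs are short RNAs that bind messenger RNAs mainly through their seed, the bases near the 5′ end, and lower the output of those messages. The muscle miRNAs, often called myomiRs, are made in striated muscle under muscle transcription factors. In muscle cells, miR-1 and miR-206 promote differentiation and miR-133 is known for its part in myoblast proliferation. The miR-208 miRNAs and miR-499 are transcribed from introns of myosin heavy chain genes and take part in the choice between fast and slow myosins. MiRNAs of striated muscle appear in plasma when muscle or heart cells release or lose their contents, and miR-208a is used as a marker of heart injury because it is close to restricted to the heart.

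The sequences show how the miRNAs fall into families, with the seed (bases 2 to 8) in capitals. For 5 of the 7 muscle miRNAs, all but miR-1a-3p and miR-133a-3p, a sequence was matched. They are RefSeq mature sequences of the mouse build GRCm38.p6.
miR-206-3p: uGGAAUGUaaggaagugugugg
miR-133b-3p: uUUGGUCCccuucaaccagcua
miR-208a-3p: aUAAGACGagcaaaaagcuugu
miR-208b-3p: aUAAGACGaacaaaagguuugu
miR-499-5p: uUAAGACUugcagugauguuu
The seed of miR-206-3p is also that of miR-1a-3p, and miR-133a-3p has the seed of miR-133b-3p and a nearly identical sequence, so the 2 probes of the miR-133 family may not separate their targets fully. In the sequence table, miR-6349 and miR-6382 also carry the seed of miR-206-3p. MiR-208a-3p and miR-208b-3p are identical at 19 of 22 positions and at all 7 of the seed. The seed of miR-499-5p matches theirs at 6 of 7 positions.

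The genes lie close to each other or within muscle genes. The mature miR-206-3p lies at chr1:20679055-20679076 and miR-133b-3p at chr1:20682834-20682855, both on the plus strand, with 3.69 kb between their hairpins, and both hairpins lie within the non-coding gene Lincmd1. The mature miR-208a-3p lies at chr14:54949072-54949093 within Myh6, which encodes the alpha myosin heavy chain of the heart. The mature miR-208b-3p lies at chr14:54975710-54975731 within Myh7, which encodes the beta or slow myosin heavy chain, and both are on the minus strand. The mature miR-499-5p lies at chr2:155622893-155622913 on the plus strand within Myh7b, a related myosin gene. One gene each for miR-1a-3p (Mir1a-1, chr2:180389048-180389124) and miR-133a-3p (Mir133a-2, chr2:180398379-180398482) lies within the host gene Mir1a-1hg.

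The values are signal intensities, scaled by the authors to a median of 25 among the listed ones of each array. Between 439 and 620 probes were listed per array, and a blank stands for the rest. The lowest listed value was 7.0 for aged mouse 1, 9.5 for aged mouse 2, 7.0 for young mouse 1 and 8.1 for young mouse 2. A total of 362 miRNAs were listed on all 4 arrays. Their median signal was 62.1 and 55.9 on the aged arrays and 67.9 and 35.2 on the young arrays, so the young arrays stood on different scales. For this reason signals are given below together with measures that do not depend on an array's scale, which are the rank within an array and the ratio of one miRNA to another on the same array. A level of one probe is not set against that of another as an amount, because each probe has its own brightness.

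Of the 7 muscle miRNAs, 3 were listed on all 4 arrays (miR-1a-3p with both miR-133 miRNAs), 3 on some arrays (miR-206-3p, miR-208a-3p and miR-499-5p) and 1 on none (miR-208b-3p). On each aged array 4 of the 7 were listed, on young mouse 1 it was 6 and on young mouse 2 it was 5. Of all probes, 44.5% and 45.7% were listed on the aged arrays, and 49.0% and 34.7% on the young arrays. MiR-206-3p, miR-1a-3p and both miR-133 miRNAs accounted for every listing on the aged arrays, where none of miR-208a-3p, miR-208b-3p and miR-499-5p had a value.

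**Figure D1:**
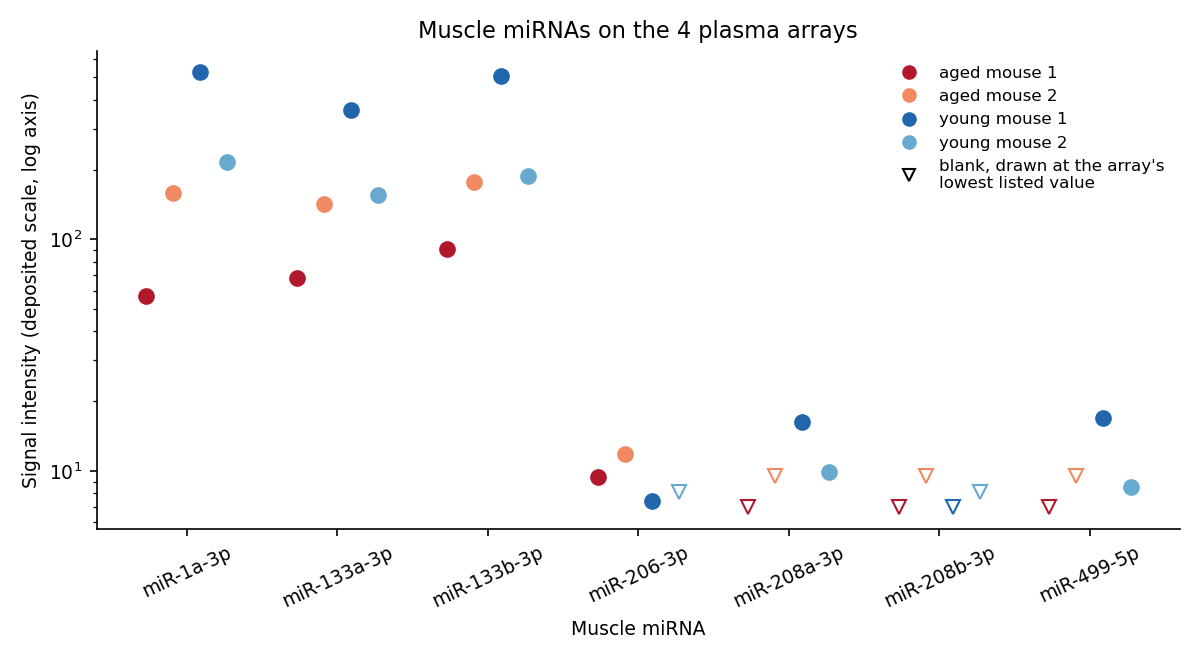
Signal intensity (log axis) of the 7 muscle miRNAs on the arrays of the 2 aged and 2 young mice, 1 point per mouse, with open triangles for blanks drawn at the lowest listed value of that array. The points of miR-1a-3p and both miR-133 miRNAs lie between 56.8 and 525.0, each aged point under each young one of the same miRNA, and all other points lie at 16.9 or less.

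MiR-1a-3p, the main miRNA of skeletal and heart muscle, had signals of 56.8 and 159.2 in aged mice 1 and 2, against 525.0 and 214.8 in young mice 1 and 2. Both aged mice were below both young mice, with aged mouse 1 the lowest and young mouse 1 the highest. In plasma, a lower signal from fewer muscle cells that release RNA cannot be told apart from less RNA per cell. With 2 mice per age, these arrays alone cannot tell either apart from an effect of a single array or blood draw. The paper also measured plasma miRNAs by qRT-PCR and reports less miR-1 and miR-133 in aged blood, which was not examined here. The mean was 108 ± 72.4 in aged plasma and 370 ± 219 in young plasma (SD, n = 2 mice each), a ratio of 0.292. On the log2 scale, aged minus young, this came to -1.82 with a standard error of 0.60 and, over 362 miRNAs, a limma adjusted p of 0.44.

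MiR-133a-3p, which is transcribed together with miR-1a from shared host genes, had signals of 67.8 and 142.2 in the aged mice, against 362.6 and 155.9 in the young mice. MiR-133b-3p, the copy that sits beside Mir206, had 91.0 and 177.2 in the aged mice, against 506.9 and 186.8 in the young mice. The order of the mice was the same for both as for miR-1a-3p, but aged mouse 2 and young mouse 2 were close to each other. The means of miR-133a-3p had a ratio of 0.405, and those of miR-133b-3p a ratio of 0.387. Each miRNA of the pair came to -1.28 on the log2 scale, with a standard error of 0.60 and a limma adjusted p of 0.80.

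None of these 3 passed an adjusted p of 0.05 in limma, where 1 of the 362 miRNAs (0.276%) was lower in aged plasma. At an unadjusted p under 0.05 all 3 were lower, against 8 of the 362 (2.21%). Both aged mice were below both young mice for all 3, as for 36 of the 362 (9.94%) on the deposited scale. The 3 were not independent of each other, since miR-133a-3p and miR-133b-3p differ little in sequence and all were read on the same arrays. For groups of 2 and 2 mice, the smallest p of a two-sided exact permutation test is 0.333. Nothing in the labels says that the 2 mice of an age were housed or processed apart, and the p-values measure only the spread between these arrays. In limma that spread was pooled over miRNAs, and all 3 had the same standard error of 0.60. Their unadjusted calls rest on this pooled spread. By the test the methods name, which was also tried, their unadjusted p-values ran from 0.21 to 0.28.

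The middle of the array lay on the other side of 0. The median log2 difference of the 362 miRNAs was 0.31, against -1.28 for the median of the 3 muscle miRNAs. Relative to the median of all, miR-1a-3p was at -2.13 and miR-133a-3p and miR-133b-3p both at -1.58. Counted from the lowest, miR-1a-3p had the second lowest log2 difference of the 362, while miR-133b-3p and miR-133a-3p stood at places 5 and 6. The paper lists all 3 among the miRNAs with the lowest aged to young ratios on these same arrays. These low places are therefore not independent evidence.

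**Figure D2:**
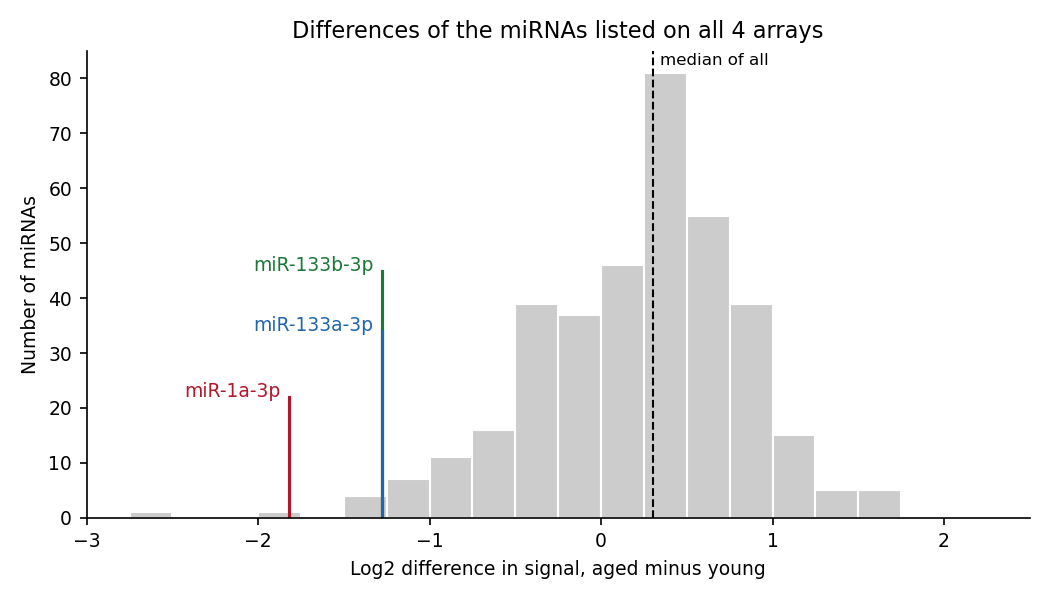
Number of miRNAs (vertical axis) by log2 difference in signal, aged minus young, for the 362 miRNAs listed on all arrays, with coloured lines for the 3 bright muscle miRNAs and a dashed line for the median of all at 0.31 (the heights of these lines carry no value). MiR-1a-3p at -1.82 and the nearly coincident lines of miR-133a-3p and miR-133b-3p at -1.28 lie in the lower tail.

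The ranks showed the same order of the mice without use of the scale. Among the 362 shared miRNAs, counted from the brightest, miR-1a-3p was at rank 187 in aged mouse 1 and 109 in aged mouse 2, against 56 in young mouse 1 and 73 in young mouse 2. MiR-133a-3p was at ranks 172 and 119 in the aged mice, against 77 and 88 in the young mice. MiR-133b-3p was at ranks 150 and 102 in the aged mice, against 58 and 79 in the young mice. In each aged mouse all 3 were ranked below either young mouse, which held for 76 of the 362 miRNAs (21.0%). By rank the 2 young mice lay closer together than the 2 aged mice for each of the 3.

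**Figure D3:**
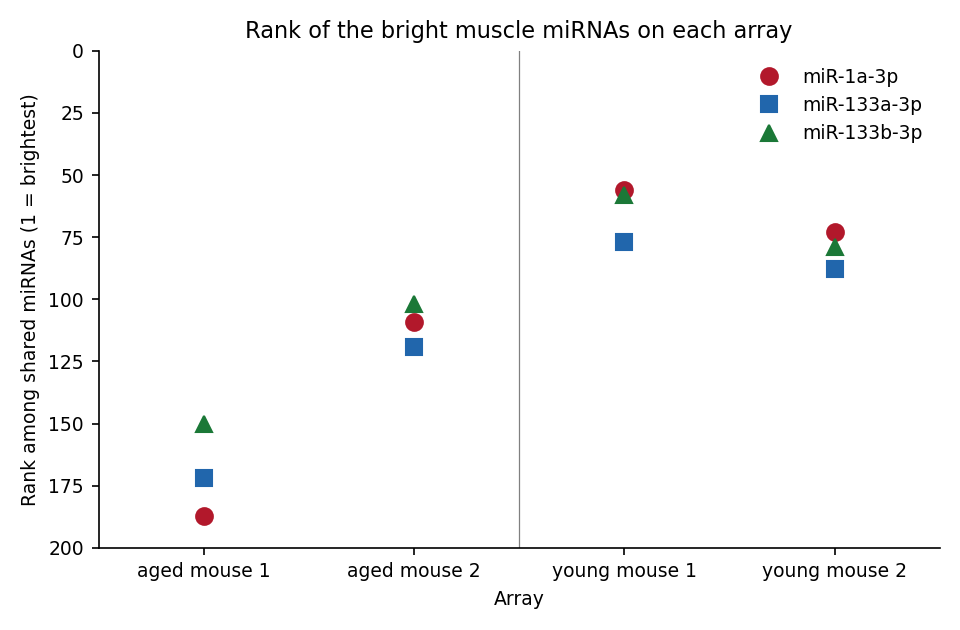
Rank by signal (vertical axis, 1 for the brightest) of the 3 bright muscle miRNAs among the 362 miRNAs shared by all arrays, for the 2 aged mice at the left and the 2 young mice at the right. The 6 points of the aged mice lie between ranks 102 and 187, and those of the young mice between ranks 56 and 88.

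As a share of the whole listed signal of an array, the 3 bright muscle miRNAs together held 0.0576% in aged mouse 1 and 0.163% in aged mouse 2, against 0.419% in young mouse 1 and 0.388% in young mouse 2. The mean share was 0.110 ± 0.0747% in aged and 0.403 ± 0.0221% in young plasma (SD, n = 2 mice each). The young shares were close together although the summed signal of the 3 was 1394.5 in young mouse 1 and 557.5 in young mouse 2. The whole signal of an array is dominated by its brightest probes, so this share is relative to them.

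The size of the difference depended on which mice were set against each other. Between the mice numbered 1 the log2 difference of miR-1a-3p was -3.21, and those of miR-133a-3p and its relative miR-133b-3p were -2.42 and -2.48. Between the mice numbered 2 it was -0.43, -0.13 and -0.076 for the same miRNAs on the deposited scale. The median of all 362 was -0.12 between the mice numbered 1 and 0.75 between those numbered 2. Relative to that median, the mice numbered 2 differed by -1.18, -0.88 and -0.83 for the same 3 in that order, and those numbered 1 by -3.09, -2.30 and -2.36. The labels give the numbers without a meaning, while the paper calls the arrays of each age experiments 1 and 2. Whether arrays with the same number were run together is not stated in the sources used here.

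Relative to the other miRNAs, the muscle miRNAs differed more between the 2 aged mice than between the 2 young mice. MiR-1a-3p was 2.80-fold higher in aged mouse 2 than in aged mouse 1, a log2 difference of 1.49 where the median of all miRNAs was 0.052. Only 3 of the other miRNAs had a larger difference in that direction, since miR-1a-3p stood at place 4 of 362, with miR-133a-3p at place 14 (2.10-fold) and miR-133b-3p at place 19 (1.95-fold). Between young mouse 1 and young mouse 2 miR-1a-3p differed 2.44-fold, miR-133a-3p 2.33-fold and miR-133b-3p 2.71-fold. There the median of all miRNAs was 0.87 on the log2 scale, and relative to it the 3 differed by only 0.42, 0.35 and 0.57. With 2 mice per age, the spread between aged mice cannot be told apart from an effect of a single array or blood draw.

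Ratios between muscle miRNAs on the same array do not depend on how the array was scaled. The ratio of miR-133a-3p to miR-1a-3p was 1.19 and 0.893 in aged mice 1 and 2, against 0.691 and 0.726 in young mice 1 and 2. That of miR-133b-3p to miR-1a-3p was 1.60 and 1.11 in the aged mice, against 0.966 and 0.870 in the young mice. Neither ratio overlapped between the ages, both being higher in the aged mice, but of all 65341 pairs of shared miRNAs 31621 (48.4%) had ratios that separated the ages in one direction or the other. The mean log2 ratio of miR-133a-3p to miR-1a-3p was 0.046 ± 0.30 in aged and -0.50 ± 0.051 in young plasma (SD, n = 2 mice each), a difference of 0.54. For miR-133b-3p to miR-1a-3p it was 0.42 ± 0.37 in aged and -0.13 ± 0.11 in young plasma (SD, n = 2 mice each), also a difference of 0.54. These 2 differences are not independent, since both ratios share miR-1a-3p and the signals of the miR-133 miRNAs varied together. Each had a p of 0.333 in the two-sided exact permutation test, the smallest that this design allows, and 0.50 after Benjamini-Hochberg adjustment over the 3 pairs.

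The ratio between the miR-133 miRNAs was nearly the same in all mice. The ratio of miR-133b-3p to miR-133a-3p was 1.34 and 1.25 in the aged mice, against 1.40 and 1.20 in the young mice, and the ages overlapped. The difference of the mean log2 ratios, aged minus young, was -0.0011 (p = 1.0 in the two-sided exact permutation test), with an SD between the mice of 0.076 in aged and 0.16 in young plasma (n = 2 each). Over the 4 arrays the log2 ratio had an SD of 0.10, and 0.894% of all 65341 pairs of shared miRNAs had one as small. The median SD of all pairs was 0.55, and it was 0.36 for miR-133a-3p to miR-1a-3p and 0.38 for miR-133b-3p to miR-1a-3p. Whether the close ratio comes from both probes reading the same RNA was not tested.

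The miRNAs of the heart and of slow muscle fibres had low signals or none. MiR-208a-3p was blank on both aged arrays, and its signals in young mice 1 and 2 were 16.3 and 9.9. MiR-499-5p, which is also expressed in slow skeletal fibres, was blank on both aged arrays too, with 16.9 and 8.5 in young mice 1 and 2. MiR-208b-3p was blank on all 4 arrays, as were 447 of the 1265 probes (35.3%). Both miR-208a-3p and miR-499-5p were thus listed in the 2 young mice alone. This pattern was shared by 14 of all 1265 probes (1.11%), or 3.52% of the 398 probes listed on both young arrays.

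These young signals lay close to the lowest that were listed. In young mouse 1, miR-208a-3p was 2.33 times and miR-499-5p 2.41 times the lowest listed value, and 37.6% and 39.2% of the listed probes had a lower signal. In young mouse 2 they were 1.22 and 1.05 times the lowest listed value, and 11.4% and 2.73% of the listed probes were lower. No source used here gives the rule by which the authors left a value blank. If a blank stands for a signal at or below the lowest listed value of its array, miR-208a-3p was at least 1.56-fold lower and miR-499-5p at least 1.47-fold lower in aged plasma (geometric means of the young signals against that of the lowest listed value of each aged array). With those lowest values put in for blanks, limma over 818 miRNAs gave a log2 difference of -0.64 for miR-208a-3p and of -0.56 for miR-499-5p, each with a standard error of 0.54 and an adjusted p of 1.00. These differences are the limits above on the log2 scale. Because both aged values of each were put in for blanks, this fit cannot measure the aged level.

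At their young proportion to miR-1a-3p, both miRNAs would have lain under the lowest value listed on each aged array. In young mice 1 and 2 the signal of miR-208a-3p was 3.10% and 4.61% of that of miR-1a-3p, and the signal of miR-499-5p was 3.22% and 3.96% of it. At these proportions, the signal of miR-1a-3p in aged mouse 1 would correspond to 1.76 to 2.62 for miR-208a-3p and 1.83 to 2.25 for miR-499-5p, under the lowest listed value of 7.0. In aged mouse 2 it would correspond to 4.94 to 7.34 for miR-208a-3p and 5.12 to 6.30 for miR-499-5p, under the lowest listed value of 9.5. The blanks on the aged arrays therefore do not tell whether miR-208a-3p and miR-499-5p were lower to the same degree as miR-1a-3p, or to another degree. For miR-208b-3p the limits were 12.3% and 5.97% of the signal of miR-1a-3p in the aged mice, against 1.33% and 3.77% in the young mice.

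MiR-206-3p, which in adult mice is a miRNA of skeletal muscle and not of the heart, had the opposite listing. Its signals were 9.4 in aged mouse 1 and 11.8 in aged mouse 2, against 7.4 in young mouse 1 and a blank in young mouse 2. Being listed on both aged arrays and on young mouse 1 alone among the young was shared by 53 of the 1265 probes (4.19%). The signals were 1.34 and 1.24 times the lowest listed value of the aged arrays and 1.06 times that of young mouse 1, and 16.2%, 15.2% and 3.55% of the listed probes were lower. With the lowest listed value of 8.1 put in for the blank, limma over 818 miRNAs gave a log2 difference of 0.44, with a standard error of 0.54 and an adjusted p of 1.00. The order of the mice was not settled, since after the shared miRNAs were set to equal medians its signals were 8.12 and 11.3 in the aged mice, against 5.85 in young mouse 1 and a limit of 12.4 in young mouse 2.

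Set against miR-1a-3p on the same array, miR-206-3p stood at 16.5% and 7.41% in the aged mice, against 1.41% in young mouse 1 and at most 3.77% in young mouse 2 if a blank means a signal no higher than the lowest listed value. The lower of the aged values was at least 1.97-fold above the higher of the young ones. The lowest listed values themselves separated the ages likewise, as the limits of miR-208b-3p show. They stood at 12.3% and 5.97% of miR-1a-3p in the aged mice, against 1.33% and 3.77% in the young mice. For signals this near those values, the separation follows from the difference of miR-1a-3p and does not measure a change of miR-206-3p. MiR-1a-3p was lower in the aged mice, while miR-206-3p stayed within 7.4 to 11.8 on the arrays that listed it. The share of background in signals so near the lowest listed values was not tested.

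**Figure D4:**
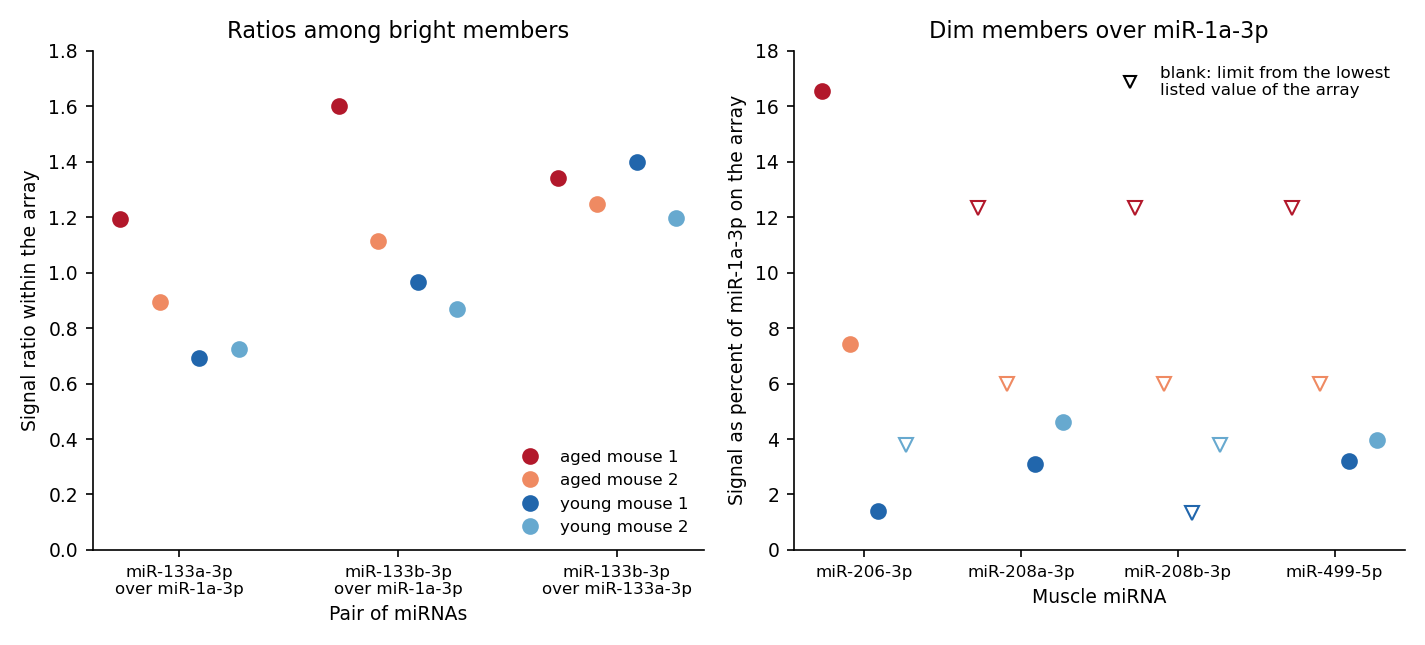
Left, signal ratio within each array for the 3 pairs of bright muscle miRNAs, and right, the signal of each dim muscle miRNA as a percent of miR-1a-3p on the same array, 1 point per mouse, with open triangles for limits from blanks. The ratios of the miR-133 miRNAs to miR-1a-3p are higher in both aged mice, the ratio of miR-133b-3p to miR-133a-3p runs from 1.20 to 1.40, and the limits for miR-208a-3p and miR-499-5p in aged mice lie above their measured young values.

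The miRNAs nearest to miR-1a-3p in their pattern over the mice were both miR-133 miRNAs and some that are not among the muscle miRNAs examined here. Likeness was measured over the 4 arrays as the root mean square difference between log2 values centred on each miRNA's own mean. Of the other 361 shared miRNAs the nearest was miR-3474, at 0.29, followed by miR-133a-3p at 0.31, miR-133b-3p at 0.33, let-7e-5p at 0.52 and miR-26a-5p at 0.55, where the median was 1.22. The signals of miR-3474 were 79.3 and 198.6 in the aged mice, against 425.9 and 240.9 in the young mice, and its log2 difference was -1.35. No source used here gives the tissues that express miR-3474. The mature sequence of miR-3474 lies at chr2:158638583-158638604 on the plus strand, and the sequence, shown here because its seed is not that of a muscle miRNA printed above, is in the next line.
miR-3474: cCCUGGGAggagacguggauuc
Let-7e-5p, of the large let-7 family, had 17.1 and 26.0 in the aged mice, against 65.3 and 27.2 in the young mice. MiR-26a-5p, which is expressed in many tissues, had 82.6 and 163.1 in the aged mice, against 269.9 and 222.7 in the young mice. Each had aged mouse 1 as the lowest and young mouse 1 as the highest, as the muscle miRNAs did. They were picked for their likeness to miR-1a-3p over these same arrays, so the shared order is not independent evidence.

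Of the miRNAs that mark other cells of the blood or tissues, the few that could be named also differed between the arrays. They come from a table in which the study had picked miRNAs by their difference on these arrays, so their directions are not independent evidence. Names were recovered for 1 of 4 markers of platelets and endothelium and 1 of 4 of myeloid cells (miR-223-3p in both lists), for 2 of 4 of smooth muscle and stroma, and for 0 of 5 of red cells and 0 of 4 of hepatocytes. MiR-223-3p, abundant in myeloid cells and platelets, had signals of 429.9 and 499.2 in the aged mice, against 269.1 and 141.4 in the young mice. MiR-486-3p, whose hairpin is expressed in red cells and in muscle, had 836.1 and 437.1 in the aged mice, against 484.5 and 121.3 in the young mice, and the ages overlapped. Of the stromal markers, miR-214-3p had 9.0 and 10.6 in the aged mice, against 27.1 and 21.8 in the young mice. The other was the probe of miR-199-3p, with 46.0 and 46.2 in the aged mice, against 123.6 and 72.8 in the young mice. Both were lower in each aged mouse than in either young mouse, as were 36 of the 362 shared miRNAs (9.94%). None of the 4 passed the threshold in limma (adjusted p from 0.80 to 0.84). The part of these cells in the signals of the muscle miRNAs was not tested.

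The calls of the bright muscle miRNAs depended on the scaling of the arrays. With equal medians of the shared miRNAs, miR-1a-3p stood at -2.09 in log2 terms with a limma adjusted p of 0.00016, each miR-133 stood at -1.55 with a limma adjusted p of 0.016, and 12 of the 362 miRNAs (3.31%) were lower at the threshold. The p-values with equal medians also rest on a pooled spread, with the same standard error of 0.42 for each of these miRNAs. With quantile normalization none of the 362 passed. Without young mouse 2, miR-1a-3p and miR-133b-3p passed the threshold, at -2.46 and -1.997, but limma then takes the single young mouse to vary like the aged ones.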

How the data were processed

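Cell-free RNA of plasma was measured on 3D-Gene mouse miRNA chips (version 19), 1 chip per mouse. The deposited table holds linear signal intensities, which the authors scaled to a median of 25 over the listed values of each array. No source used here states the scaling method, the background step or the rule for blanks. There were 8 more columns with values per sample under headings that match no mouse, and these were left out.

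The muscle miRNAs and all lists were chosen with earlier results of these data known. Log2 values without a pseudocount of the 362 miRNAs listed on all arrays entered a two-sided fit by lmFit and eBayes without a block (limma 3.58.1, R 4.3.3), with p-values adjusted over the 362 by the Benjamini-Hochberg method and a threshold of 0.05. The fit was tested on simulated data with an equal spread for all miRNAs and no difference in scale between arrays. That test does not cover the scaling of the arrays. Ratios within an array were compared by exact permutation tests. Figures were drawn in Python 3.11.15 with matplotlib 3.10.9, and numpy 2.4.6, scipy 1.17.1 and pandas 2.3.3 were used.

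The miRNAs named were the 7 muscle miRNAs and the 5 with the pattern nearest to miR-1a-3p. The files pair no names with the identifiers, so the names of other miRNAs come from signals printed in the paper that matched 1 probe each. This gave miR-3474, let-7e-5p, miR-26a-5p, miR-486-3p and 3 markers of other cell types (miR-223-3p, miR-214-3p and miR-199-3p). Apart from miR-486-3p, the other miRNAs expressed in muscle were not analysed here. Nor were opposite arms and all other markers, the 5 listed for red cells included. The number of arrays limits the precision.

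Other settings tried were equal medians of the shared miRNAs, quantile normalization, a mean signal of 50 or more, blanks set to the lowest value of the array, a pseudocount of 16, a trended and robust variance, a replicate block, each mouse left out and the test the methods name.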

Additional observations from a re-analysis of the deposited data

How the results depend on the processing

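The log2 differences of miR-1a-3p and both miR-133 miRNAs were negative under all settings run, those without 1 mouse included. With equal medians they were -2.09, -1.55 and -1.55, all 3 passed the threshold, and 12 of the 362 miRNAs were lower and 4 higher. The cause was not tested, and the median of all miRNAs then stood at 0.034 in place of 0.31. Of all miRNAs, 0 were lower with quantile normalization, 0 with a trended and robust variance and 0 with the adjusted test the methods name, 2 were lower with blanks set to the lowest value of the array, and 4 were lower and 3 higher by the methods' test without adjustment. That test called none of the 3 muscle miRNAs.

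With 1 mouse left out, the log2 difference ran from -2.56 to -1.08 in miR-1a-3p, from -1.88 to -0.67 in miR-133a-3p and from -1.997 to -0.56 in miR-133b-3p, and their median from -1.997 to -0.67. From 0 to 2 of the 3 passed, and of all miRNAs 0 to 2 were lower and 0 to 49 higher, with 49 without young mouse 1 and 2 lower without young mouse 2. The median of all ran from -0.14 to 0.73. The differences were smallest for miR-1a-3p without aged mouse 1, at -1.08, and for both miR-133 miRNAs without young mouse 1, at -0.67 and -0.56. Such a fit takes the lone mouse to vary like those of the other age. The ratio of miR-133a-3p to miR-1a-3p differed by 0.34 to 0.75 (log2) and that of miR-133b-3p to miR-1a-3p by 0.28 to 0.81. That of miR-133b-3p to miR-133a-3p ran from -0.11 to 0.11, at 0.052 without aged mouse 2 and 0.11 without young mouse 1.

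What arrays of the same number shared, beyond being called experiments 1 and 2, is not stated in the sources used here. Same-numbered arrays deviated from their group means with a correlation of 0.34 across 362 miRNAs. With a replicate block the log2 difference of miR-1a-3p was -1.82 (adjusted p = 0.22 from limma), and the block changed no call. Between the aged and young mice numbered 1 the log2 ratios to miR-1a-3p differed by 0.79 (miR-133a-3p) and 0.73 (miR-133b-3p). Between those numbered 2 they differed by 0.30 and 0.36. The log2 ratio of miR-133b-3p to miR-133a-3p differed by -0.059 between the mice numbered 1 and by 0.057 between those numbered 2. Counting only values at least 2 times the lowest listed value, 3 muscle miRNAs were left on each aged array, 5 on young mouse 1 and 3 on young mouse 2, which keeps miR-208a-3p and miR-499-5p on young mouse 1 alone and miR-206-3p on none.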
